A study of Rattus norvegicus with 6 samples.

Results

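Adrenergic receptors are the 7 member genes Adra1a, Adra1b and Adra1d (alpha-1), Adra2a, Adra2b and Adra2c (alpha-2) and Adrb1 (beta-1), and every non-control probe whose transcript accession belonged to one of them was taken. Each gene had 1 probe, which gave 7 probes of 30367 on the array and 7 of the 15168 genes that could be named. The rule names genes and accessions and uses no expression value, but the receptor family was proposed with earlier results of these data known. All 7 probes were well above background on all 6 arrays and passed the filter on dim probes.

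Hippocampal tissue of male SD (Sprague Dawley) rats was measured on single-colour arrays, each of which held the RNA of 1 sample. The 3 AD samples came from rats given oligomers of the peptide Aβ1-42 by intracerebroventricular injection, and the 3 Sham samples from rats given vehicle. Both were injected on both sides through a steel cannula, by the labels for the vehicle and by the study's methods for the oligomers. The study's methods call the rats adult and name no other agent, and the interval from injection to dissection was not given in the sources used here. AD in this design therefore means an injected peptide, and no transgene is named in the labels.

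Noradrenaline reaches the hippocampus along axons of the locus coeruleus, a small nucleus of the brainstem, and acts there on G protein-coupled receptors. Alpha-1 receptors couple to Gq, phospholipase C and intracellular calcium. Alpha-2 receptors couple to Gi/o, lower cAMP and serve both as autoreceptors on noradrenergic endings and as receptors on other neurons, whereas beta receptors couple to Gs and raise cAMP. The mRNA of an autoreceptor lies mainly in the cell bodies of the brainstem, so that hippocampal mRNA stands for receptors made by cells of the hippocampus itself.

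The annotated upstream sequences of the alpha-2 genes are shown because the only receptor probe that passed the test belongs to this subfamily. Each is the 250 bases before the annotated start, 5′ to 3′ on the gene's strand, from RefSeq (GRCr8), and 6 of the 7 members had an entry. Capitals mark the GC box GGGCGG on either strand.
Adra2a, chr1:263066530-263066779, + strand: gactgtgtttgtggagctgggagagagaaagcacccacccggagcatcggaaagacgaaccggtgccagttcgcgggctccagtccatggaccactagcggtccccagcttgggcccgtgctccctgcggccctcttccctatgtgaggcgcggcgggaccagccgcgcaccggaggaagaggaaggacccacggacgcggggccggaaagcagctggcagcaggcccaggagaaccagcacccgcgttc
Adra2b, chr3:135038231-135038480, + strand: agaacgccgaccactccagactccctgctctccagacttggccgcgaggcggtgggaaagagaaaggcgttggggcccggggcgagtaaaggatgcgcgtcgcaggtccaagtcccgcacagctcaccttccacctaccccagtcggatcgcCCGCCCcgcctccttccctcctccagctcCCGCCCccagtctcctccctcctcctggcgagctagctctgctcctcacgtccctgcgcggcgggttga
Adra2c, chr14:79697477-79697726, - strand: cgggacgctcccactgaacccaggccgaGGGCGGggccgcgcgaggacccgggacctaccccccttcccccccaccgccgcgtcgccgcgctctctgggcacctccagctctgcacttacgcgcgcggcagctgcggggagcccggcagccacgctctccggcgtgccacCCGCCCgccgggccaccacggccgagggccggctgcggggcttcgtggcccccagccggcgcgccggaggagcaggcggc
The Adra2a window holds 0 GC boxes, and those of Adra2b and Adra2c hold 2 each. A GC box was found in 30.5% of the 33469 windows of this length in the same table. The Adra2a window is 67.6% G and C, that of Adra2b 68.0% and that of Adra2c 80.4%, against a median of 51.2% over all windows. Neither the cAMP response element TGACGTCA nor TATAAA was found on either strand of these 3 windows, and they occurred in 1.59% and 12.9% of all windows.

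The array scale differed between samples, with a 75th percentile of the processed signal between 753 and 932 on 5 arrays and of 429 on Sham replicate 3. Expression is given below as the log2 processed signal minus that percentile, so that a probe at 0 sat exactly at that percentile, and levels of different probes are not set against each other. With an adjusted p below 0.05 as the limit, 2858 of 22768 probes passed in limma, of which 946 were up in AD (4.15%) and 1912 were down (8.4%). Of 12 marker genes fixed for hippocampal pyramidal and granule neurons 10 had a named probe, and all of these were well above background on all 6 arrays, among them Prox1, a granule cell transcription factor, and Wfs1, a marker of CA1 neurons.

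Of the 7 receptor probes 1 passed the test, that of Adra2a, while 12.6% of all tested probes passed, or 8.4% in the direction of Adra2a, so the count itself is close to the background. For 2 of 7 probes the AD and Sham arrays were fully separated, Adra2a downward and Adra1b upward, against 39.0% of all tested probes (23.4% downward and 15.6% upward). The median log2 change of the 7 receptors was 0.05, and that of all tested probes was -0.01. Adra2a was lower in AD, and the other receptors had changes between -0.21 and 0.23 that did not pass.

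**Figure D1:**
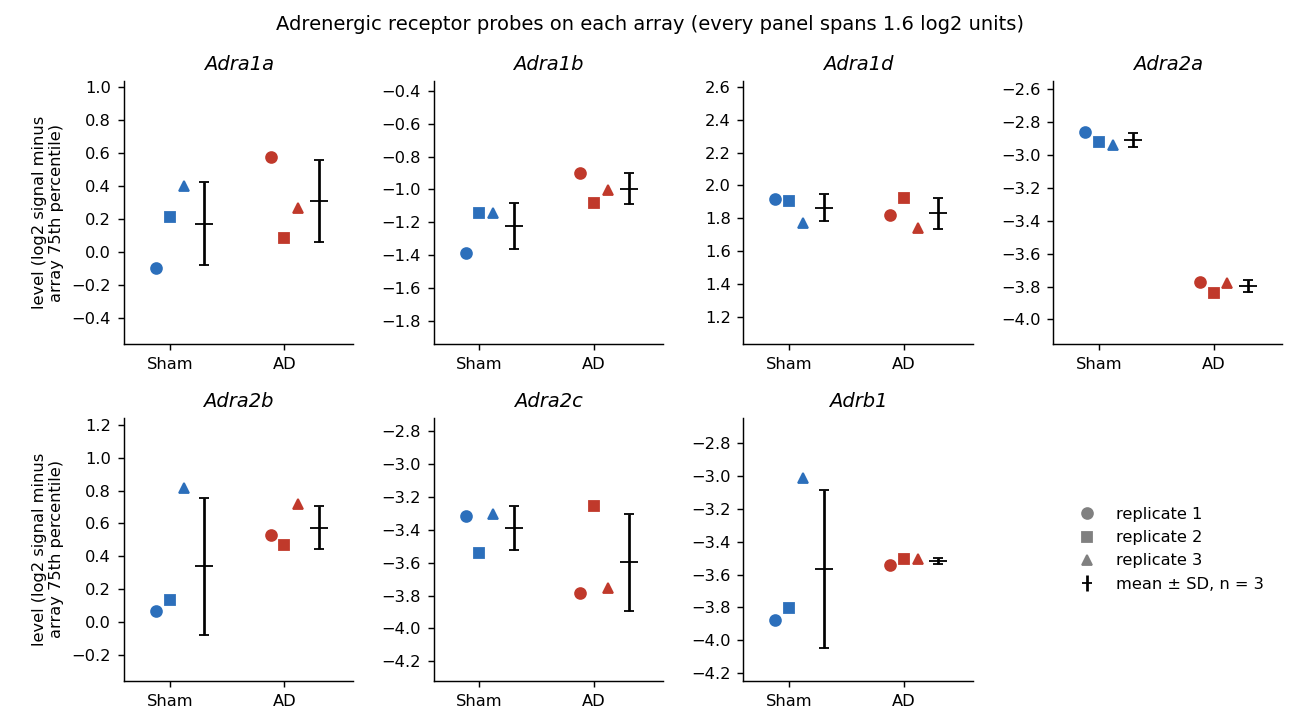
Level of each adrenergic receptor probe (log2 scale relative to the 75th percentile of each array, vertical axis) on the Sham arrays (blue) and the AD arrays (red), with a marker shape for each replicate number and the mean ± SD of 3 arrays in black. Every panel spans the same range. The 3 AD values of Adra2a lie below all 3 Sham values, and Sham replicate 3 lies apart from the other Sham arrays for Adra2b and Adrb1.

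Adra2a encodes the alpha-2A receptor, the main inhibitory noradrenaline receptor of the brain and the target of clonidine and guanfacine. On AD replicates 1 to 3 it stood at -3.77, -3.84 and -3.78, and on the Sham replicates at -2.86, -2.92 and -2.94 in the same order. All AD arrays were lower than all Sham arrays, and the arrays of each group lay close together, with means of -3.80 ± 0.04 in AD and -2.91 ± 0.04 in Sham (SD, n = 3 each). Adra2a fell 1.85-fold in AD, a log2 change of -0.89 ± 0.08 (SE, 95% interval -1.08 to -0.70, limma adjusted p = 0.0183). The percentage of all tested probes with a change of at least this size in either direction was 4.38%. The change was below the 2-fold limit of the study, which 2.25% of the tested probes passed together with an unadjusted p under 0.05.

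The Adra2a spot was 1 per array and dim, with processed signals of 65.4, 55.5 and 67.9 in AD against 103.6, 99.7 and 56.0 in Sham, by replicate number. Before scaling, Sham replicate 3 was thus within the AD range, and its place among the Sham values rests on the scaling of that array. The error that the scanner software assigned to these spots was between 10.3% and 11.7% of the signal. The SD of 0.04 on the log2 scale between arrays of a group was smaller than this error. The closeness of the 3 arrays is therefore not to be read as the precision of this probe. Without Sham replicate 3 the log2 change was -0.91 (adjusted p = 0.0162), which is also the value within the first scan day. On that day the AD and Sham arrays were still in different scans. Under normexp background correction, which moved the median of all tested probes to -0.15, it was -0.65 (adjusted p = 0.0242).

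The Adra2a call was lost with scan as a random block (adjusted p = 0.172) and when single arrays were left out, while the size of the change hardly moved. The log2 change was -0.90 without AD replicate 1 (adjusted p = 0.117), -0.87 without AD replicate 2 (0.0514), -0.90 without AD replicate 3 (0.0844), -0.87 without Sham replicate 1 (0.0545) and -0.90 without Sham replicate 2 (0.0697). Limma called between 0 and 2 of all 22768 probes in these 5 fits, although 4856 to 6442 probes had an unadjusted p under 0.05.

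Adra2b encodes the alpha-2B receptor, known in brain mainly from the thalamus. Its level was 0.53, 0.47 and 0.72 on the AD arrays and 0.07, 0.14 and 0.82 on the Sham arrays. Sham replicate 3 was the highest of all 6 arrays and the other Sham arrays the lowest. Before scaling, the signals were 1292, 1102 and 1535 in AD against 788, 829 and 757 in Sham, by replicate number. All Sham arrays were then below all AD arrays and Sham replicate 3 was the lowest. Its high place thus rests on the scaling of that array. The log2 change was 0.23 ± 0.22 (95% interval -0.29 to 0.76, adjusted p = 0.50). Without Sham replicate 3 it was 0.47 and passed (adjusted p = 0.0385), in a fit that called 19.6% of all tested probes and 3 of the 7 receptors (Adra2a, Adra2b and Adrb1). Adra2b also passed with array weights (adjusted p = 0.0241), in a fit that called 43.4% of all tested probes. The receptors called there were Adra2a, Adra2b and Adra1b, and Adrb1 did not pass (adjusted p = 0.0931).

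Adra2c encodes the alpha-2C receptor, known for its expression in striatum and hippocampus. Its level was -3.78, -3.26 and -3.75 on the AD arrays and -3.31, -3.54 and -3.30 on the Sham arrays. AD replicate 2 was the highest array and the other AD arrays were the lowest, so the groups overlapped. This probe was also dim, with 1 spot per array and an assigned error of 10.7% to 11.2%. Its processed signals were 65.0, 83.3 and 69.1 in AD against 75.7, 64.8 and 43.4 in Sham. The log2 change was -0.21 ± 0.17 (95% interval -0.62 to 0.20, adjusted p = 0.438).

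The change of Adra2a, chosen as the receptor with the lowest adjusted p, was also set against that of every other receptor. This gave 6 comparisons of the log2 difference between the 2 probes on each array. The Adra2a change was lower by 1.12 than that of Adra2b and by 0.68 than that of Adra2c, and by 0.85 to 1.12 than those of the alpha-1 receptors and by 0.94 than that of Adrb1. In each comparison all 3 AD arrays lay below all 3 Sham arrays, which gives an exact two-sided permutation p = 0.10, the smallest that 3 arrays against 3 allow (0.10 after Benjamini-Hochberg adjustment over the 6). This exact test can thus not pass a threshold of 0.05 for any of these differences, and no other test of them was run. All 6 comparisons share the Adra2a values, so they are not independent and add no separate evidence for its fall.

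Among the alpha-1 receptors, Adra1b had AD levels of -0.90, -1.08 and -1.0 and Sham levels of -1.38, -1.14 and -1.14. All AD arrays were higher than all Sham arrays, by a small margin between AD replicate 2 and Sham replicate 2. The log2 change of 0.23 ± 0.11 did not pass (95% interval -0.03 to 0.49, adjusted p = 0.206). Among the alternatives it passed only with array weights (0.29, adjusted p = 0.0317), where 43.4% of all tested probes were called. A separation of the groups in this direction was not rare, as the 15.6% of all tested probes above shows.

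Adra1a had AD levels of 0.58, 0.08 and 0.27 and Sham levels of -0.10, 0.21 and 0.40. The groups overlapped, with AD replicate 1 highest and Sham replicate 1 lowest, and the log2 change was 0.14 ± 0.18 (95% interval -0.30 to 0.58, adjusted p = 0.640). Adra1d, the alpha-1D receptor of the hippocampal formation and of blood vessels, had AD levels of 1.82, 1.93 and 1.74 and Sham levels of 1.92, 1.91 and 1.77. Both groups covered nearly the same range, and the log2 change was -0.04 ± 0.09 (95% interval -0.26 to 0.19, adjusted p = 0.826).

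Adra1d was the only receptor with repeated spots, 10 on each array, of which 1 on AD replicate 3 was flagged as an outlier and left out. The SD of the log2 signal between spots of an array ran from 0.05 to 0.17. The SD between arrays of a group was 0.09 in AD and 0.08 in Sham, after averaging over spots. The interval of the Adra1d change is the second narrowest of the 7, after that of Adra2a, and reaches from a fall of 0.26 to a rise of 0.19.

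Adrb1 encodes the beta-1 receptor, which raises cAMP in excitatory neurons. Its level was -3.54, -3.51 and -3.50 on the AD arrays and -3.88, -3.80 and -3.01 on the Sham arrays. The AD arrays lay within 0.04 of each other, between Sham replicate 3, which was highest, and the other Sham arrays, which were lowest. Before scaling, the signals were 76.9, 70.0 and 82.1 in AD against 51.2, 54.1 and 53.1 in Sham. All Sham arrays were then below all AD arrays, so the high place of Sham replicate 3 rests on the scaling of that array. The probe was dim, with 1 spot per array and an assigned error of 10.4% to 12.3%. The closeness of the AD levels is therefore not its precision. The log2 change was 0.05 ± 0.23 (95% interval -0.52 to 0.62, adjusted p = 0.911). Without Sham replicate 3 it was 0.32 and passed (adjusted p = 0.0393), whereas without Sham replicate 1 it was -0.11. Its direction thus rests on single Sham arrays and on how Sham replicate 3 is scaled.

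**Figure D2:**
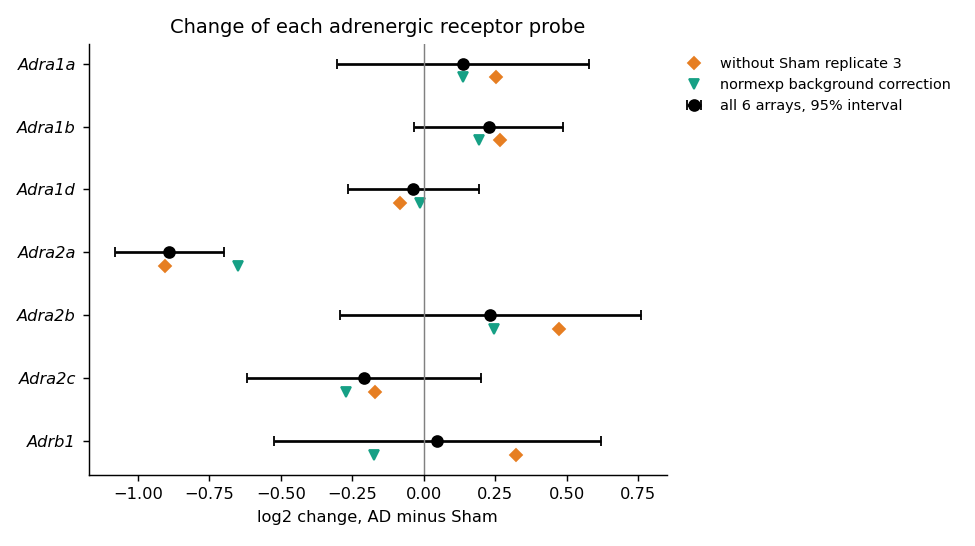
Log2 change (AD minus Sham, horizontal axis) of each receptor probe, with black points and 95% limma intervals for all 6 arrays, orange diamonds without Sham replicate 3 and green triangles under normexp correction. The interval of Adra2a, -1.08 to -0.70, is the only one that does not reach 0, and the largest shift without Sham replicate 3 is seen for Adrb1 and Adra2b.

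The pathway around the receptors was described with 8 lists of 88 genes, of which 78 were tested with 1 probe each. In all 10 of these passed, 4 higher and 6 lower in AD, a share of 12.8%, against 14.9% of the 11949 named genes tested in this way (4.08% higher and 10.8% lower). The median log2 change over the 78 genes was 0.01, and that of all named genes was -0.05. In each of the 5 fits that left out an array other than Sham replicate 3, limma called 0 of the 78 genes, with 17 to 27 at an unadjusted p under 0.05.

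Noradrenaline synthesis and storage had 5 tested genes, of which 1 passed. Ddc, the aromatic amino acid decarboxylase shared by dopamine, noradrenaline and serotonin synthesis, was at 0.01, 0.27 and -0.42 on the AD arrays and 0.95, 0.73 and 0.68 on the Sham arrays. All AD arrays were lower, and Ddc fell by 0.83 ± 0.19 on the log2 scale (adjusted p = 0.0421), but its other probe gave 0.13 and the adjusted p was 0.0501 without Sham replicate 3. For Th, the rate-limiting enzyme, the log2 change was 0.44 (adjusted p = 0.242). Dbh, which makes noradrenaline from dopamine, was well above background on 2 of 6 arrays and was not tested. Phox2a, a transcription factor of noradrenergic neurons, was well above background on 0 arrays.

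Noradrenaline uptake and breakdown had 5 tested genes, all with a positive change and a median of 0.39, of which 1 passed. Maob, monoamine oxidase B of astrocytes and serotonergic neurons, was at 0.61, 0.65 and 0.63 on the AD arrays and 0.09, -0.05 and 0.18 on the Sham arrays. All AD arrays were higher, and Maob rose 1.47-fold (log2 change 0.56 ± 0.09, adjusted p = 0.0236). The noradrenaline transporter gene Slc6a2 had a log2 change of 0.24 (adjusted p = 0.571).

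Gi/o proteins and GIRK channels, through which alpha-2 receptors act, had 9 tested genes, of which 1 passed. Gnai3, an inhibitory G protein alpha subunit, fell by 0.52 ± 0.09 (adjusted p = 0.0251), with AD levels of 2.52 to 2.71 below Sham levels of 3.09 to 3.17. Gnai1 had 0.31, Gnai2 -0.13 and Gnao1 -0.26, and none of these passed. Of 11 genes of Gq signalling, downstream of the alpha-1 receptors, Gnaq, the Gq alpha subunit, fell by 0.44 ± 0.09 (adjusted p = 0.0341) and the other 10 did not pass. Under normexp correction the adjusted p of Gnaq was 0.0714.

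Gs, adenylyl cyclase and protein kinase A, downstream of beta receptors, had 15 tested genes, of which 1 rose and 1 fell. Prkar1a, a regulatory subunit of protein kinase A, fell by 0.50 ± 0.10 (adjusted p = 0.0335). It did not pass with quantile normalization (-0.33, limma adjusted p = 0.0511) or the authors' value table (-0.33, 0.0512). By the methods' t-test its adjusted p was 0.0522. Adcy7, an adenylyl cyclase, rose by 0.72 ± 0.12 (adjusted p = 0.0238) and Pde8a, the 1 of 8 cAMP phosphodiesterases that passed, by 1.07 ± 0.17 (adjusted p = 0.0222). Both probes were dim, well above background on 5 and 4 of the 6 arrays, and under normexp correction their changes turned to -0.02 and -0.04.

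Receptor kinases, arrestins and anchoring proteins had 12 tested genes, of which 3 passed. Akap5, which anchors protein kinase A at synapses, was at 1.16, 1.36 and 1.04 on the AD arrays and 1.81, 2.20 and 2.67 on the Sham arrays. All AD arrays were lower, and Akap5 fell by 1.04 ± 0.23 (adjusted p = 0.0381), or by 0.82 without Sham replicate 3. Grk4, a receptor kinase, fell by 0.58 ± 0.10 (adjusted p = 0.0250), whereas a further Grk4 probe gave -0.12. Akap12, an anchoring protein of protein kinase A, rose by 0.40 ± 0.08 (adjusted p = 0.0344), with 0.41 for its second probe, and did not pass under normexp correction (0.19). Of 13 RGS proteins, which shorten G protein signals, limma called 0, and 3 had an unadjusted p under 0.05, while the methods' t-test called 0. The largest change among them was that of Rgs11 (0.44 ± 0.30, adjusted p = 0.373), which was well above background on 3 arrays.

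**Figure D3:**
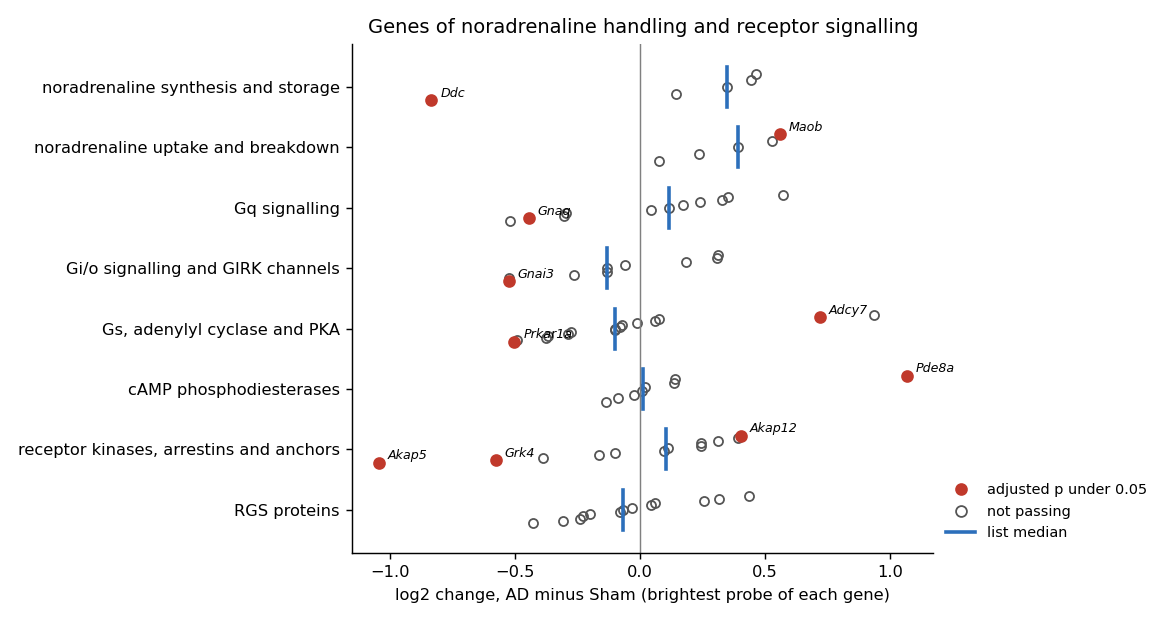
Log2 change (AD minus Sham, horizontal axis) of the brightest probe of each gene in the 8 pathway lists (vertical axis), with red points for an adjusted p under 0.05, open points for genes that did not pass and blue bars for list medians. The 10 named genes lie on both sides of 0, from Akap5 at -1.04 to Pde8a at 1.07.

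Pan-neuronal and interneuron markers moved in the same direction as Adra2a. Over all named genes 10.8% passed lower and 4.08% higher, and the marker counts are to be read against these shares. Of 14 interneuron markers 6 fell and 0 rose, with a median of -0.57, among them Vip (-1.34 ± 0.11) and Dlx1 (-1.06 ± 0.10). Their summed level, the sum of the linear signals relative to the 75th percentile, was 70.2 to 74.5 in AD and 119 to 122 in Sham. Of 9 pan-neuronal markers 6 fell and 0 rose, among them Elavl4 (-0.73 ± 0.10) and Syt1 (-0.64 ± 0.08), with summed levels of 89.0 to 98.6 and 116 to 137. Both sums weigh the brightest probes most and do not stand for every gene of a list. In the interneuron list these were Cck, Gad1 and Sst, of which Sst did not pass (limma adjusted p = 0.0638). In the pan-neuronal list they were Stmn2, Tubb3, Map2 and Snap25, of which only Tubb3 passed. Of 10 markers of pyramidal and granule neurons, 5 had a positive and 5 a negative change, with a median of -0.03, and 2 fell (Fibcd1, -0.66 ± 0.14, and Spink8, -0.60 ± 0.12). Neither passed under normexp correction (-0.58 and -0.46).

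Of the 4 tested markers of noradrenergic neurons 3 had a positive change that did not pass, and the list median was 0.34. Their summed level was 2.51 to 2.65 in AD and 2.66 to 3.24 in Sham, and Ddc, whose probes disagreed as given above, was the only one of the 4 that was lower. Each of the 4 tested markers was well above background on all 6 arrays, while Dbh and Phox2a were too dim to be tested, as given above. In bulk tissue, fewer cells of a type and less RNA per cell cannot be told apart, and the part of these marker differences in the Adra2a result was not tested.

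Choroid plexus markers, of a tissue that borders the hippocampus in the ventricles, had the highest median of all lists, 2.79 on the log2 scale, with a positive change in 9 of 9. Their summed level was 145, 82.2 and 146 on AD replicates 1, 2 and 3 against 27.4, 58.1 and 103 on the Sham arrays. By this sum AD replicate 2 stood below the other AD arrays and below Sham replicate 3. The sum is mostly that of Ttr, the brightest of these probes (6.32 on AD replicate 2, 6.66 on Sham replicate 3). Sostdc1, Folr1, Kcnj13 and Cltrn were higher on AD replicate 2 than on Sham replicate 3, and the other markers were lower. Limma called 0 of these 9 markers, of which 6 had an unadjusted p under 0.05, and the methods' t-test called 0. Skeletal muscle markers had a positive change in 7 of 8, with a median of 0.94, and 1 of them, Myh1, rose (0.97 ± 0.20), but not under normexp correction (0.36, adjusted p = 0.225) or without Sham replicate 3 (0.95, adjusted p = 0.0518).

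Limma called 0 of 9 astrocyte, 0 of 9 microglial and 0 of 4 erythrocyte markers, of which 2, 0 and 1 had an unadjusted p under 0.05, and the methods' t-test called 1, 0 and 0. The astrocyte list had 4 positive and 5 negative changes, the largest that of Gfap (0.95, limma adjusted p = 0.188). These counts rest on brightest probes. The other probe gave 1.58 for S100b (brightest 0.22), 1.65 for Hba-a1 (brightest -1.25) and 1.26 for Hbb (brightest -2.59). Oligodendrocyte markers rose in 5 of 10, among them Myrf (0.65 ± 0.14, but -0.07 under normexp correction and an adjusted p of 0.0504 without Sham replicate 3) and Cldn11 (0.64 ± 0.11). Those of smooth muscle and pericytes rose in 2 of 9, with Abcc9 at 0.99 ± 0.12 (0.49 under normexp correction and 0.40 by its other probe) and Vtn at 0.44 ± 0.08. Of 7 endothelial markers 1 rose (Cldn5, 0.42 ± 0.09), and of 8 meningeal markers 1 (Ogn, 0.82 ± 0.15). Of 7 thalamic markers Ntng1 fell (-0.96 ± 0.12, with -0.15 by its other probe) and Lef1 rose (0.48 ± 0.09), but Lef1 was at 0.04 under normexp correction (adjusted p = 0.834). Of 9 striatal markers Ppp1r1b rose (0.80 ± 0.15).

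Over the 6 arrays the pattern of Adra2a was most like that of Kyat3 (Pearson r = 0.999), Sntg2 (0.999) and Gabarapl2 (0.998), by log2 levels. These genes had log2 changes of -0.27, -0.95 and -0.29. The points are 6 arrays in 2 groups, and 165 of the 14120 named probes compared had an r of at least 0.98, so that a high r mostly restates the difference between the groups.

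**Figure D4:**
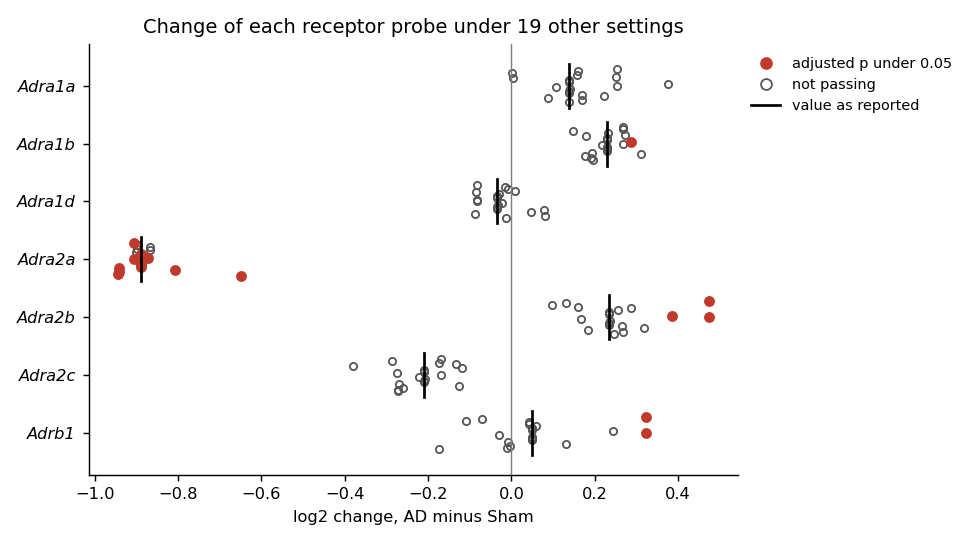
Log2 change (AD minus Sham, horizontal axis) of each receptor probe under the 19 other settings, with red points for an adjusted p under 0.05, open points for settings that did not pass and a black bar for the value as reported. All points of Adra2a lie between -0.94 and -0.65, while those of Adrb1 and Adra1d lie on both sides of 0.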

How the data were processed

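Total RNA of 6 hippocampal samples was labelled with Cy3 and hybridised to Rat 4x44K arrays, read with Agilent Feature Extraction 11.0.1.1 per the file headers. The deposited processed signal is an intensity on a linear scale with the background subtracted. The raw median intensity and its background were also deposited, and the authors deposited a value table on a log2 scale, whose scaling is unstated (each column's median is 6.56) and whose columns for AD replicates 2 and 3 matched the scanner values of AD replicates 3 and 2.

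Spots of controls and spots marked as outliers by the scanner software (400 to 559 on an array) were dropped, log2 signals of a probe's spots were averaged, and each array's 75th percentile was subtracted. A probe was tested if it had an unflagged spot on every array and exceeded background clearly (the software's well-above-background mark) on 3 or more. The number of arrays sets the precision. Accessions were looked up, without versions, in RefSeq (GRCr8), which named 59.3% of the 30367 probes. The array design uses rn4. For lists, each gene was read from its brightest probe.

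Groups came from the sample titles. The labels do not say which animal each tissue came from, so that p-values measure the spread between these samples. AD was compared with Sham by lmFit and eBayes of limma 3.58.1 (R 4.3.3, statmod 1.5.0), as a two-sided test, p-values being adjusted by Benjamini-Hochberg across every probe tested, with 0.05 as the limit. AD arrays were scanned together, Sham replicates 1 and 2 in a second scan of that day and Sham replicate 3 on another day. No scan held arrays of both groups, so that differences between groups and between scans cannot be told apart. Alternatives covered background correction (normexp with offset 50, on the median rather than the planned mean signal), scaling, filters, the value table, scan, array weights, the replicate number, the methods' t-test and leaving out each array. Named genes are all members, up to 3 passing genes of each pathway list (or the largest change where none passed), up to 2 of each marker list, and the 3 genes most like the member with the lowest adjusted p. The members and lists were chosen with earlier results of these data known. Some genes of these lists are not reported here and were left out of the list counts.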

Additional observations from a re-analysis of the deposited data

How the results depend on the processing

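Adra2a kept its direction under all 19 alternatives (log2 change -0.94 to -0.65, adjusted p 0.00127 to 0.172) and passed in 12. These are not all separate checks. The filters on dim probes, the replicate block and the methods' t-test leave the estimate itself unchanged, so its direction could not turn there. Scan day as a fixed block gives the same fit as leaving out Sham replicate 3. The count of receptor probes called was 1 in 9 alternatives, 3 with scan day as a fixed block and with array weights, 0 with scan as a random block and 0 to 3 over the fits that leave out an array. Over all probes limma called 1767 under normexp correction (307 higher and 1460 lower), 352 without a filter on dim probes, 4468 with scan day as a fixed block, 9872 with array weights, 0 with scan as a random block (3672 at an unadjusted p under 0.05) and 0 to 4468 when an array was left out, and the methods' t-test called 1848. Estimation of the array weights stopped before convergence. When detected probes alone set the 75th percentile, 1422 of 2671 calls were higher, and with median scaling 688 of 2836. Of the pathway genes, 10 as reported, 0 passed without a filter (22 at an unadjusted p under 0.05), 0 with scan as a random block (12), 37 with array weights, 6 by the methods' t-test and 0 to 13 when an array was left out. The cause was not tested.

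With the replicate block limma called 0 of all probes (6482 at an unadjusted p under 0.05), 0 of the receptor probes (1) and 0 of the pathway genes (23), and Adra2a had an adjusted p of 0.0815. Deviations of same-numbered arrays correlated with r of 0.03, 0.07 and 0.14. These were not set against differently numbered arrays, so they do not settle whether same-numbered samples share more than a number.

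Values that changed sign were not passing as reported, apart from Adcy7 (-0.0202), Pde8a (-0.0397) and Myrf (-0.0683) under normexp correction, where Rgs11 gave -0.28 and Adrb1 -0.17. Adra1d gave 0.0795 with quantile normalization, 0.0474 with the 75th percentile over detected probes, 0.0789 with the authors' table and -0.0842 to 0.0075 when an array was left out. Adrb1 gave -0.0095 with quantile normalization, -0.0027 with median scaling, -0.0077 with the authors' table, -0.0292 with scan as a random block and -0.11 to 0.32 when an array was left out. Adcy7, Pde8a and Rgs11 were well above background on 5, 4 and 3 of the 6 arrays.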
